A study of Mus musculus with 4 samples.

Results

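The genes described here are 10 genes of microbial pattern recognition in the mouse, namely the Toll-like receptor genes Tlr1, Tlr2, Tlr3, Tlr4, Tlr5, Tlr6 and Tlr9, the cytosolic receptor genes Nod1 and Nod2, and the adaptor gene Myd88. They were chosen by name out of 21281 autosomal protein-coding genes of the GENCODE M1 annotation. The rule held no methylation value, but the choice was made with earlier results of these data known. Whole-genome bisulfite sequencing gave the DNA methylation of colonic intestinal stem cells (ISCs), sorted as Lgr5-EGFP+ cells, and of differentiated epithelial cells, sorted as Lgr5-EGFP- EpCAM+ cells, at postnatal day 0 (P0) and postnatal day 21 (P21). These ages are the start and the end of suckling. The mice, labelled as strain C57, came from crosses of Lgr5-EGFP-CreER mice of C57BL/6 J background, in which EGFP and the Cre recombinase are driven by the regulatory sequences of the endogenous Lgr5 gene, with wild-type C57 mice. No agent was given. DNA was pooled over litters at P0 and over reporter-positive offspring at P21, so that each of the 4 groups is 1 library of pooled animals with no replicate. Every test below compares 2 libraries rather than 2 conditions. The paper describes the pools by age, so both populations of an age may come from the same animals. Their changes with age may then not be independent readings. The paper also reports mosaic expression in this line, with crypts that lack EGFP. The share of stem cells in the Lgr5-EGFP- EpCAM+ sort was not tested.

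Toll-like receptors are transmembrane proteins that bind conserved microbial molecules, at the cell surface for lipopeptides, lipopolysaccharide and flagellin and in endosomes for nucleic acids. NOD1 and NOD2 sense fragments of bacterial peptidoglycan in the cytosol. Most Toll-like receptors signal through MyD88 to NF-kB, TLR3 signals through TRIF instead, and NOD proteins signal through the kinase RIPK2. In the gut these receptors face a bacterial community that forms after birth, and the epithelium is known to keep their activity under tight control.

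Methylation was read as the percentage of methylated calls among all calls at CpG cytosines, where a call is the reading of 1 cytosine by 1 sequenced read. Levels were taken in 200-bp bins of the mm9 genome from 5 kb upstream of each gene to its end. Stretches of runs and bins that changed in the same direction in both populations, and that hold no untranslated bases of any transcript, are shown first, each on the plus strand 5′ to 3′ with its CpG dinucleotides in capitals. The opening bases of a run of intron 1 of Nod1 that lost methylation (chr6:54915001-54915300), a second site in intron 1 of Nod1 that lost it (chr6:54905201-54905400), a stretch of coding exon 4 of Nod1 that gained it (chr6:54894201-54894400), a stretch of coding exon 4 of Nod2 that gained it (chr8:91188001-91188200), a stretch of intron 4 of Nod2 whose single CpG lost it (chr8:91191001-91191200), the part free of untranslated bases of a run upstream of Myd88 that lost it (chr9:119251901-119252200) and a stretch of intron 1 of Tlr5 that gained it (chr1:184891201-184891400) read as follows.
Nod1 intron 1: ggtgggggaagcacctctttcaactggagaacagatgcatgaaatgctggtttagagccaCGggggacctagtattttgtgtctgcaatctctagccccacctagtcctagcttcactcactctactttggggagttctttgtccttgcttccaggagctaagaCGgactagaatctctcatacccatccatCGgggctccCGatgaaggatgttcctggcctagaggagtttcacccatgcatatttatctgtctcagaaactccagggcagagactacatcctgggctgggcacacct
Nod1 intron 1, second site: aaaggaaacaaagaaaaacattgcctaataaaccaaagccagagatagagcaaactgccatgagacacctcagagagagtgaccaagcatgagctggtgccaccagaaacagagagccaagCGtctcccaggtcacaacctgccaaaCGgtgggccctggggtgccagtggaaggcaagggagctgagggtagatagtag
Nod1 exon 4: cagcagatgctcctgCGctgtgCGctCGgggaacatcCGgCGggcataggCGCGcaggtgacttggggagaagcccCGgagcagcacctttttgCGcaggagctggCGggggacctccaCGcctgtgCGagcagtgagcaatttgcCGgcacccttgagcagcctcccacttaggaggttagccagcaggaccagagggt
Nod2 exon 4: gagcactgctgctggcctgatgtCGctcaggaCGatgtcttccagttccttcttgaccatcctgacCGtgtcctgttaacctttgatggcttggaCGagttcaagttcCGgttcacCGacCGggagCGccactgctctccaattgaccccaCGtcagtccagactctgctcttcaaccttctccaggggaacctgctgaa
Nod2 intron 4: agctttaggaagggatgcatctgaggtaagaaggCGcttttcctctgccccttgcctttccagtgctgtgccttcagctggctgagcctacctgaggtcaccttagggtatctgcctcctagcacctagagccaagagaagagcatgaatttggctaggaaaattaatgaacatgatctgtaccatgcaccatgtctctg
Myd88 upstream: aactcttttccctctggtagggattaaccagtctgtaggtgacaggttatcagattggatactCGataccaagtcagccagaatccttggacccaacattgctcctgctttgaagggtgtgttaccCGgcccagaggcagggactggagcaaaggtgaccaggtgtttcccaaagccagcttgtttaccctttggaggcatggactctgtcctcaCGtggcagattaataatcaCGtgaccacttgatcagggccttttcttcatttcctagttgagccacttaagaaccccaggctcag
Tlr5 intron 1: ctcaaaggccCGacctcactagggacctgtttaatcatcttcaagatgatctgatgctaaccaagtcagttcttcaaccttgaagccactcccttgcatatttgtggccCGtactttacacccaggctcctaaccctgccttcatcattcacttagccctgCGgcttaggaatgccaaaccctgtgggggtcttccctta
The exon stretches of Nod1 and Nod2 hold 13 and 9 CpGs in 200 bases, against 4 CpGs in 300 bases in each of the first Nod1 intron stretch and the Myd88 upstream stretch. The Myd88 stretch holds 1 of the 5 CpGs of the bin called in both populations and the 3 CpGs of the bin after it, which was called in ISCs alone. All 200 bases of both exon stretches code for protein.

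The 4 libraries held between 1005931171 and 1166333988 calls at autosomal CpGs, with medians of 15 calls per CpG in ISCs at P0, 17 in ISCs at P21, 23 in differentiated cells at P0 and 19 in differentiated cells at P21. Promoters of epithelial marker genes were largely unmethylated, with medians over 10 genes of 2.53%, 1.77%, 2.50% and 0.965% in the same order, and 9 of 10 were under 20% in every library (Krt20 lay between 51.4% and 56.1%). Of 4 stem cell markers, Lgr5 included, 3 were under 20% in every library, and 0 of 4 were called between the populations. At P21 smaller differences between differentiated cells and ISCs were found at Lgr5, with 4.28 points (exact test, adjusted p = 5.1e-08), and at Olfm4, with −12.3 points (exact test, adjusted p = 0.00039). Promoters of 14 leukocyte genes had medians of 79.3%, 74.4%, 77.0% and 79.8% with 1 of 14 under 20% in every library. That of Cd53 was called as a loss in ISCs, at 88.8% at P0 and 73.8% at P21, and in differentiated cells it was at 75.3% and 89.8%, a difference of 14.5 points (exact test, adjusted p = 0.045). At P21 it was also called between the populations. Promoters of 4 endothelial genes lay between 69.1% and 80.4%, and 4 of 5 stromal genes were under 20%. Promoter methylation does not measure how many cells of another type a sort holds, and the part of such cells in the values below was not tested.

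The 10 genes covered 1182 bins with 3394 CpGs, of which 920 bins had at least 10 calls in all 4 libraries and were tested, 204 of them with 1 CpG. A bin counts as called where 2 levels differ by over 15 percentage points and the p of Fisher's exact test (two-sided) stays below 0.05 after adjustment over all 5393831 autosomal bins. Neighbouring CpGs of 1 read and possible PCR copies are not independent, so these p-values are too small and the 95% intervals cover counting error only. In ISCs, 31 of the 920 bins were called between P0 and P21 (12 gains and 19 losses), which is 3.37% against 2.01% of all bins. In differentiated cells, 42 were called (15 gains and 27 losses), which is 4.57% against 2.36% of all bins. The median difference over the 920 bins was 0.41 points in ISCs and 0.10 points in differentiated cells, and the called bins stood singly or in short runs. The excess of called bins held only with the test, since 15% of the 920 bins and 16.4% of all bins differed by over 15 points in ISCs, called or not, and 13.9% and 14.5% did in differentiated cells.

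The called bins fell in each of the 10 genes in at least 1 population. In ISCs they numbered 10 in Nod2, 5 in Nod1, 3 each in Tlr4, Tlr5 and Myd88, 2 each in Tlr3, Tlr6 and Tlr9, 1 in Tlr2 and 0 in Tlr1. In differentiated cells they numbered 11 in Nod1, 9 in Nod2, 7 in Tlr4, 4 each in Tlr3 and Tlr5, 2 each in Tlr6 and Myd88 and 1 each in Tlr1, Tlr2 and Tlr9. Of the bins tested, 193 were in Nod1, 194 in Tlr4 and 167 in Nod2, so the longest genes also gave the most bins. In ISCs the share called was 6.98% in Myd88, 5.99% in Nod2, 5.13% in Tlr9, 4.35% in Tlr6 and 3.64% in Tlr3. It was 2.83% in Tlr5, 2.78% in Tlr2, 2.59% in Nod1, 1.55% in Tlr4 and 0% in Tlr1, against 2.01% of all bins. In differentiated cells it ran from 2.44% in Tlr1 to 7.27% in Tlr3, against 2.36% of all bins. The shares of single genes were not tested. Of the 920 bins, 14 were called in the same direction in both populations, against 0.725% of all bins. In opposite directions 0 were called, and over all autosomes 275 of 5393831 bins were, so the 0 is near the background. These 14 bins make up 14 of the 31 called in ISCs and 14 of the 42 called in differentiated cells, where over all autosomes 36% of the bins called in ISCs and 30.7% of those called in differentiated cells were shared. They comprised 10 losses and 4 gains in 6 genes (4 each in Nod1 and Nod2, 2 each in Tlr3 and Tlr4, 1 each in Tlr5 and Myd88), and 74.4% of all bins shared by the populations were losses, so the split of the 14 was near that of the genome. A further 17 were called in ISCs alone and 28 in differentiated cells alone, of which 40 of 45 had the same sign in the other population (77.2% of such bins over all autosomes).

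**Figure D1:**
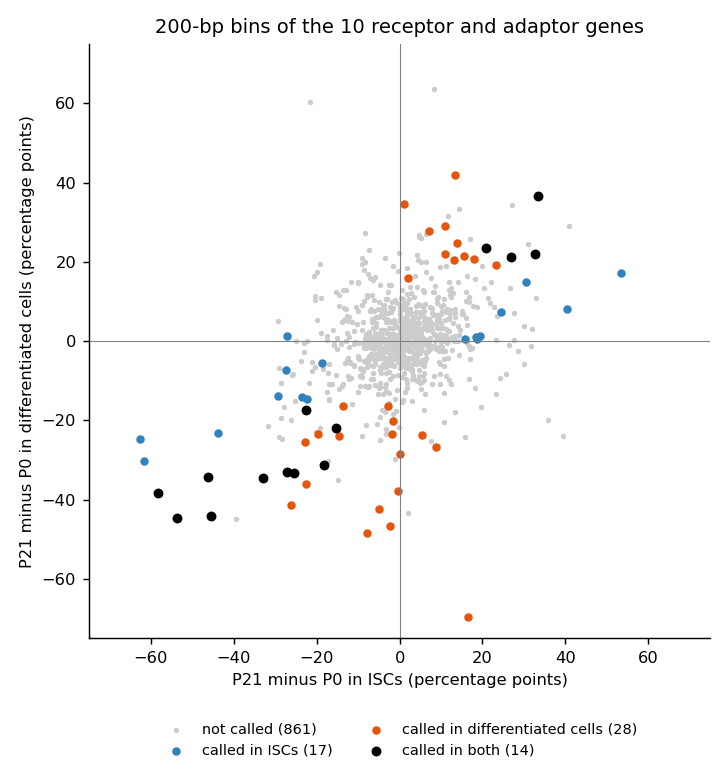
Difference between P21 and P0 in percentage points for each of the 920 tested 200-bp bins of the 10 genes, in ISCs (horizontal axis) and in differentiated cells (vertical axis), with colour for the population in which the bin was called. The 14 black points, called in both populations, lie in the lower left (10 losses) and the upper right (4 gains). In opposite directions 0 bins were called, where over all autosomes 275 of 5393831 were.

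By position, 85 of the tested bins lay in promoters (from 1 kb before to 1 kb after the transcription start of the transcript with the longest coding sequence of a protein-coding gene). Of these, 4 were called as losses and 0 as gains in ISCs (4.71% called, against 2.24% of all promoter bins), and 6 as losses and 1 as a gain in differentiated cells (8.24% against 2.62%). Of 106 bins in coding exons outside promoters, 5 were gains and 2 losses in ISCs (6.60% called, against 2.66% of such bins over all protein-coding genes) and 4 were gains and 1 was a loss in differentiated cells (4.72% against 2.78%). The 453 bins in the noncoding parts of transcripts gave 4 gains and 13 losses in ISCs (3.75% against 2.30%) and 7 gains and 15 losses in differentiated cells (4.86% against 2.72%). The 276 bins outside these transcripts gave 3 gains and 0 losses in ISCs (1.09% against 1.77%) and 3 gains and 5 losses in differentiated cells (2.90% against 2.07%). The bins of 1 gene are neighbours, and these shares were not tested.

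Of the surface receptors, Tlr4, which binds lipopolysaccharide together with MD-2 and CD14, lost methylation around its transcription start (chr4:66488618-66591318, plus strand). The bin over the start (chr4:66488601-66488800, 5 CpGs) was 22.5% methylated in ISCs at P0 (29 of 129 calls), 0 of 124 calls in ISCs at P21, 17.5% in differentiated cells at P0 (32 of 183 calls) and 0 of 126 calls in differentiated cells at P21. A count of 0 allows a level of up to 2.42% and 2.38%, and both losses passed Fisher's exact test (adjusted p = 3.6e-07 and 5.7e-06). The next bin, which holds the end of exon 1 and the start of intron 1, went from 18.2% to 0 of 58 calls in ISCs (exact test, adjusted p = 0.04) and from 31.2% to 0 of 60 calls in differentiated cells (adjusted p = 7.1e-06). All 8 CpGs of the pair were at 0 in both P21 libraries, whereas at P0 they ran up to 41.7% in ISCs and up to 60.0% in differentiated cells, and 1 CpG was already at 0 in ISCs. In the first of these bins 87.4% of the calls came from the minus strand, and in the second 59.6%.

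The Tlr4 promoter as a whole was not called. It was 21.7% methylated in ISCs at P0 (95% interval 18.4 to 25.4), 17.4% in ISCs at P21 (14.2 to 21.2), 21.8% in differentiated cells at P0 (19.0 to 24.8) and 12.7% in differentiated cells at P21 (10.3 to 15.5). The difference was −4.25 points in ISCs (adjusted p = 0.25) and −9.11 points in differentiated cells (Fisher's exact test, adjusted p = 9.3e-05), under the 15 points set for a call. With each bin weighted equally the differences were −4.63 and −21.2 points. In ISCs the promoter difference was 3.54 points from plus-strand cytosines and −23.6 points from minus-strand cytosines. Each value covers only bins with at least 10 calls on that strand in every library, so the sets of bins differ. The bin over the start had 4 plus-strand calls in differentiated cells at P21 and entered the minus-strand value alone. In ISCs its difference was −27.0 points on the plus strand and −20.7 points on the minus strand, and that of the next bin −20 and −17.2 points. Within 500 bp of the start the promoter differences were −15.2 points in ISCs and −17.6 points in differentiated cells, and both were called. Over the whole Tlr4 gene record, 1 gain and 2 losses were called in ISCs, and 2 gains and 5 losses in differentiated cells. Besides the shared pair at the start, a further loss in differentiated cells alone did not lie beyond the main transcript. The other 4 calls in differentiated cells alone, 2 gains and 2 losses, lay beyond it. That part of the gene record reaches 66591318. The bin chr4:66586401-66586600, for example, fell from 92.2% to 45.6% and was 67.4% and 65.2% in ISCs.

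**Figure D2:**
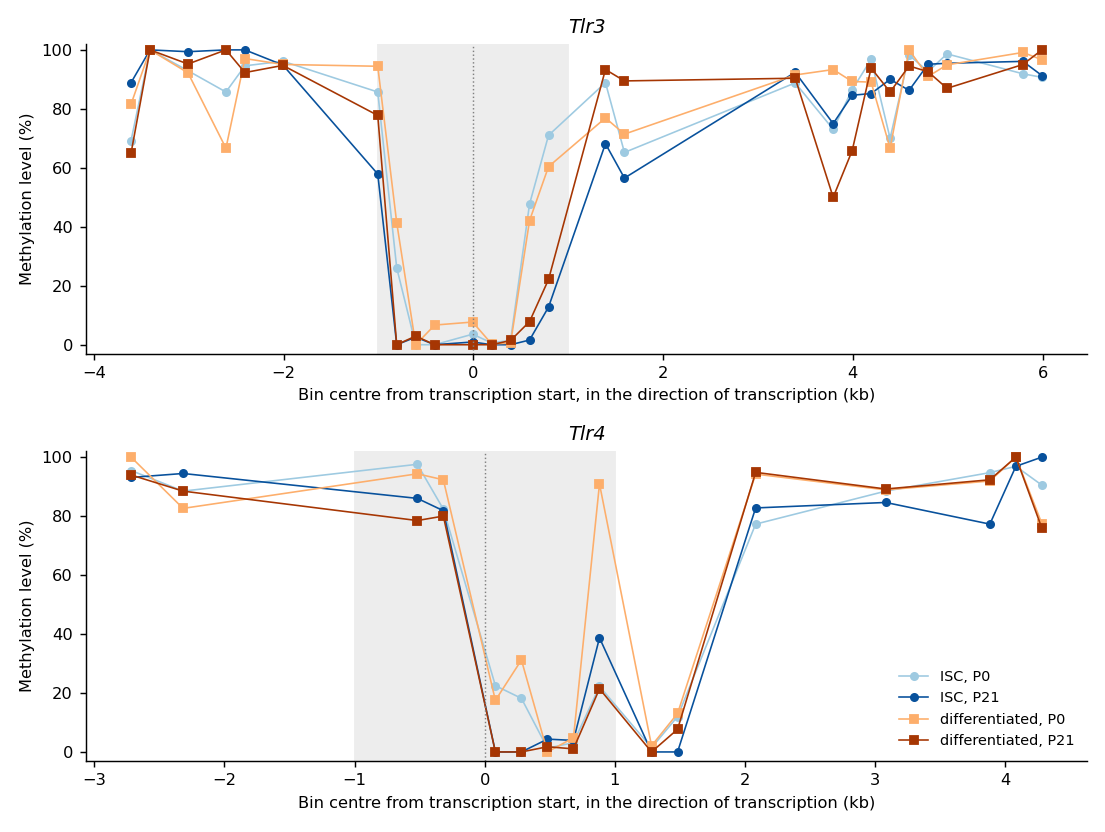
Methylation level of each tested 200-bp bin (percentage of calls, vertical axis) against the distance of its centre from the transcription start in kb for Tlr3 and Tlr4, with 1 line per library and the promoter window in grey. At the Tlr4 start both P21 libraries sit at 0% where the P0 libraries reach 31.2%, and in Tlr3 the bins called in both populations lie in the downstream edge of the window, where levels at P0 of 42.1% to 71.0% stand against 1.59% to 22.1% at P21.

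Tlr2, Tlr1 and Tlr6 form heterodimers that recognise bacterial lipopeptides, and their promoters differed in level more than in change. The Tlr2 promoter (55 CpGs) was low, at 12.5% in ISCs at P0, 9.32% in ISCs at P21, 6.18% in differentiated cells at P0 and 5.64% in differentiated cells at P21. The Tlr1 promoter (24 CpGs) was at 72.1%, 69.6%, 79.5% and 72.9% in the same order, and the Tlr6 promoter (49 CpGs) was at 83.0%, 85.6%, 85.8% and 88.5%. With each of its 4 bins weighted equally, the Tlr1 promoter was at 38.5% to 42.8%, that of Tlr2 at 22.3% to 24.8% and that of Tlr6 at 84.6% to 88.7%. By either weight both partners of TLR2 lay above it in each library, and the level of Tlr1 rested on the weight. Tlr1 and Tlr6 are close relatives that share 556 coding bases in exact stretches of 100 bp, which touched 2 tested bins of Tlr1 and 3 of Tlr6, and 0 of these were called with age.

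Single bins were called upstream of or inside these genes. In the coding last exons, a Tlr2 bin (chr3:83641201-83641400) rose in ISCs from 76.7% to 95.5% (exact test, adjusted p = 0.00013). A Tlr6 bin (chr5:65345801-65346000) fell in ISCs from 50.8% to 23.3% (exact test, adjusted p = 1.7e-05). In differentiated cells these bins were at 95% and 95.5%, and at 52.4% and 45.1%, and were not called with age. A bin upstream of Tlr2 (chr3:83647601-83647800, 6 CpGs) rose in differentiated cells from 21.4% to 43.5% (Fisher's exact test, adjusted p = 6.6e-08). ISC levels were 23.8% and 34.7% at P0 and P21 (exact test, adjusted p = 0.11). A bin upstream of Tlr6 (chr5:65352801-65353000, 2 CpGs) rose in ISCs from 19.1% to 59.5% (exact test, adjusted p = 0.012). Levels in differentiated cells were 47.6% and 55.7% (exact test, adjusted p = 0.88). A single CpG in intron 2 of Tlr1 (chr5:65320401-65320600) rose in differentiated cells from 10.8% to 30.1% (exact test, adjusted p = 0.029). In ISCs it was at 22.6% and 45.9% (exact test, adjusted p = 0.2). Further upstream of Tlr6, 2 bins fell in differentiated cells, from 46.3% to 29.9% (chr5:65354401-65354600) and from 62.7% to 38.8% (chr5:65354801-65355000), and ISCs were at 40.9% and 27.2%, and at 47.0% and 32.3%. For these bins the difference between populations in the change with age was not tested.

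Tlr5, the receptor of flagellin (chr1:184884919-184906175, plus strand), gained methylation at several places in intron 1 and lost it at another. The stretch printed above (3 CpGs, 98.7% of calls on the minus strand) rose from 51.5% to 84.9% in ISCs (53 of 103 and 79 of 93 calls, exact test, adjusted p = 0.00015) and from 38.3% to 75% in differentiated cells (62 of 162 and 129 of 172 calls, adjusted p = 4.0e-09). Nearer the start, 2 adjacent bins (chr1:184886201-184886600, 7 CpGs) rose in differentiated cells from 26.3% to 54.1% and from 27.6% to 69.5%. In ISCs the same bins were at 41.5% and 48.6%, and at 50% and 63.3%, at P0 and P21 (exact test, adjusted p = 0.9 and 0.58). All 7 CpGs were higher at P21 in differentiated cells, and 5 of 7 were in ISCs. The bin right after them (chr1:184886601-184886800, 3 CpGs) went the other way in ISCs, from 58.0% to 30.9% (exact test, adjusted p = 0.010), and was at 43.4% and 44.6% in differentiated cells. Further into the intron, chr1:184892001-184892200 (7 CpGs) rose in ISCs from 48.0% to 78.5%, and was at 50.5% and 65.4% in differentiated cells.

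The Tlr5 promoter (44 CpGs) was at 6.15% in ISCs at P0, 10.4% in ISCs at P21, 7.83% in differentiated cells at P0 and 11.3% in differentiated cells at P21. The differences of 4.22 and 3.42 points (exact test, adjusted p = 0.019 and 0.016) were under the size set for a call. Inside the window, a bin of 2 CpGs just upstream of the start (chr1:184884601-184884800) rose from 10.2% to 39.1% in differentiated cells and was 25.0% and 36.0% in ISCs. It was the 1 promoter bin of the 10 genes called as a gain.

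Of the endosomal receptors, Tlr3, which binds double-stranded RNA (chr8:46481019-46495962, minus strand), had the largest promoter difference of the 10 genes in ISCs. Its promoter (25 CpGs) was 15.9% methylated in ISCs at P0 (95% interval 12.9 to 19.3), 2.49% in ISCs at P21 (1.51 to 4.06), 12.2% in differentiated cells at P0 (10.2 to 14.6) and 4.34% in differentiated cells at P21 (3.11 to 6.04). The differences were −13.4 points (95% interval −16.9 to −10.1, exact test, adjusted p = 6.0e-14) and −7.88 points (−10.6 to −5.23, adjusted p = 2.6e-07). Both P21 libraries lay below both P0 libraries, and 2.19% and 5.04% of all promoters had a difference as low or lower. The change in pooled calls did not reach 15 points, so the promoter was not called, whereas with each bin weighted equally the differences were −16.6 and −15.6 points.

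The Tlr3 bins called in both populations held 3 CpGs of its noncoding exon 2 (positions 46495178, 46495180 and 46495225). The bin chr8:46495001-46495200, with the first 2 of them, fell from 71.0% to 12.8% in ISCs (49 of 69 and 12 of 94 calls, exact test, adjusted p = 2.0e-11) and from 60.4% to 22.1% in differentiated cells (61 of 101 and 25 of 113 calls, adjusted p = 3.3e-06). The bin chr8:46495201-46495400, with the third, fell from 47.7% to 1.59% in ISCs (exact test, adjusted p = 1.4e-06) and from 42.1% to 7.84% in differentiated cells (adjusted p = 0.0038). In these bins 100% and 99.1% of the calls came from the minus strand, so the loss was read on 1 strand. Over the whole promoter, plus-strand cytosines alone gave differences of −1.40 points in ISCs and −0.56 points in differentiated cells. The 3 bins next to them, over the start, were between 0% and 7.69% in every library, and in a window of 500 bp to each side the promoter differences were −1.23 and −0.59 points. A single CpG at the other edge (chr8:46496601-46496800) went from 41.4% to 0 of 23 calls in differentiated cells and was called there, and was 26.1% and 0 of 11 calls in ISCs. The promoters with levels nearest to those of Tlr3 over the 4 libraries were those of Phxr2, Acat1 and Tnfaip8l1, at distances of 2.80, 2.92 and 3.60 points.

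Tlr9, the receptor of unmethylated CpG DNA in endosomes, had a methylated promoter (21 CpGs) at 78.5% in ISCs at P0, 83.3% in ISCs at P21, 78.9% in differentiated cells at P0 and 79.3% in differentiated cells at P21. A bin upstream of it (chr9:106123201-106123400, 3 CpGs, 96.0% of calls on the minus strand) rose in ISCs from 59.2% to 83.6% (Fisher's exact test, adjusted p = 0.0046). The values in differentiated cells were 68.6% and 76.0% (exact test, adjusted p = 0.69). Further upstream, 1 bin (chr9:106121201-106121400) rose in ISCs from 63.3% to 81.6%. In differentiated cells it was at 77.3% and 78.3%. The bin after it fell in differentiated cells from 78.2% to 54.4%. ISC levels were 67.8% and 73.3%.

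**Figure D3:**
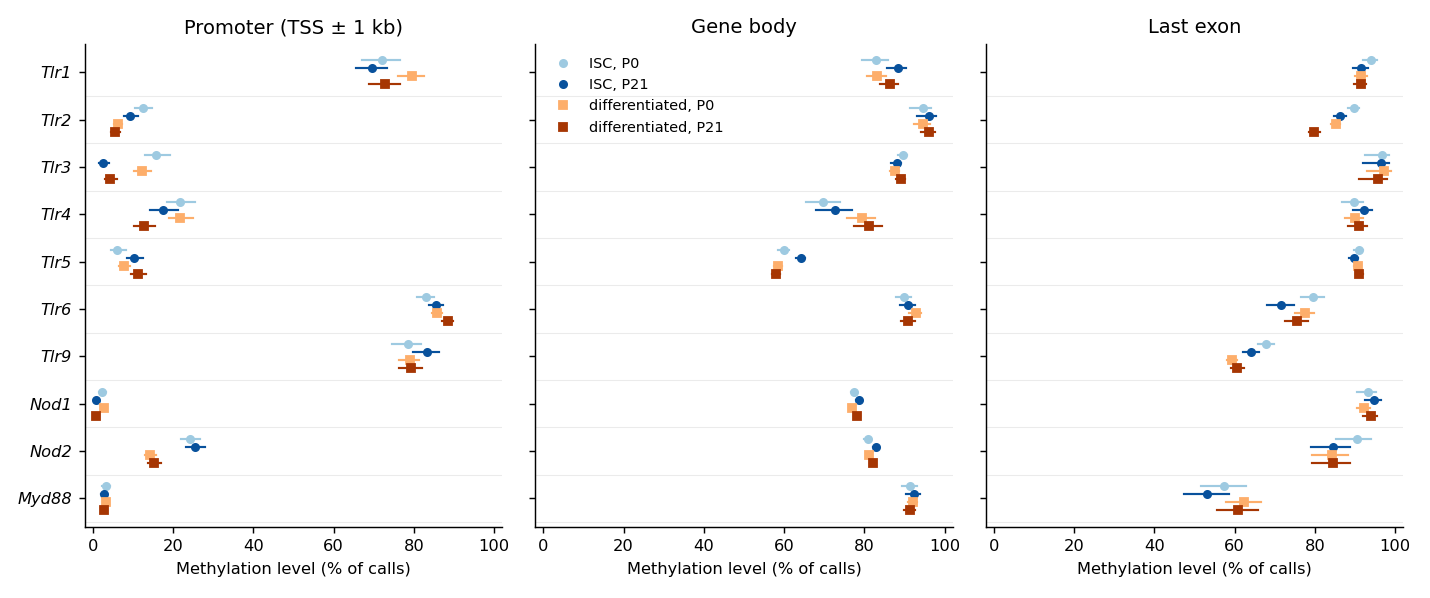
Methylation level (percentage of calls, with 95% Wilson intervals for counting error) of the promoter, gene body and last exon of each gene, with 1 point per library. By pooled calls the promoters split into a low group of 7 genes, from Myd88 and Nod1 at 3.26% or less to Nod2 at up to 25.6%, and the methylated promoters of Tlr1, Tlr6 and Tlr9 at 69.6% or more, and Tlr9 has no body apart from its promoter and last exon.

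Nod1, the sensor of peptidoglycan that holds diaminopimelic acid (chr6:54873936-54922606, minus strand), kept a nearly unmethylated promoter and had called bins inside the gene. The promoter (71 CpGs) was at 2.20% in ISCs at P0, 0.799% in ISCs at P21, 2.86% in differentiated cells at P0 and 0.765% in differentiated cells at P21. Its differences of −1.40 and −2.09 points (exact test, adjusted p = 0.023 and 4.9e-07) were under the size set for a call. In intron 1, the bin chr6:54915001-54915200 fell from 31.0% to 3.95% in ISCs (exact test, adjusted p = 0.0025) and from 35.5% to 2.60% in differentiated cells (adjusted p = 8.1e-07). The next bin fell from 15.4% to 0 of 80 calls in ISCs, which allows up to 3.75%, and from 22.7% to 0.741% in differentiated cells. The third fell in differentiated cells from 25.8% to 5.80%. In ISCs it was at 13.0% and 11.4%. Of the 9 CpGs of this run, 9 were lower at P21 in differentiated cells and 8 in ISCs. A second site in intron 1 (chr6:54905201-54905400, 2 CpGs) fell from 56.2% to 23.4% in ISCs and from 58.4% to 23.9% in differentiated cells. The other called bins of Nod1 introns were losses in 1 population, such as chr6:54920801-54921000 (6 CpGs), which fell in ISCs from 91.1% to 72.4%. Levels in differentiated cells were 80.5% and 75%. Over 90% of the calls of the 2 shared bins of the run came from the minus strand (92.0% and 97.4%), and 3.01% of those of the second site did.

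Exon 4 of Nod1, which is coding over the whole run, moved the other way. The stretch printed above rose from 64.7% to 91.6% in ISCs (86 of 133 and 185 of 202 calls, exact test, adjusted p = 7.3e-07) and from 62.0% to 83.3% in differentiated cells (424 of 684 and 399 of 479 calls, adjusted p = 9.2e-13). The bins on either side rose in differentiated cells, from 66.3% to 86.8% (exact test, adjusted p = 1.4e-09) and from 56.5% to 72.6% (adjusted p = 1.9e-07). In ISCs they were at 73.8% and 86.8% (exact test, adjusted p = 0.13) and at 74.5% and 76.4% (adjusted p = 1). Of 31 CpGs with at least 5 calls in each library, 31 were higher at P21 in differentiated cells and 24 in ISCs.

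Nod2, the sensor of muramyl dipeptide (chr8:91171214-91212373, plus strand), also gained methylation in coding exon 4 and lost it in introns, and another part of exon 4 lost it. The printed stretch of exon 4 rose from 47.6% to 80.3% in ISCs (157 of 330 and 257 of 320 calls, exact test, adjusted p = 4.7e-15) and from 55.7% to 77.8% in differentiated cells (376 of 675 and 423 of 544 calls, adjusted p = 3.7e-13). The bin before it rose in ISCs from 75.5% to 91.3% (exact test, adjusted p = 0.0069). The values in differentiated cells were 76.9% and 77.6% (exact test, adjusted p = 1). Further along the same exon, chr8:91189001-91189200 (14 CpGs) fell in ISCs from 85.7% to 62.1%. In differentiated cells it was at 85.3% and 71.1%. The bin chr8:91188401-91188600 (5 CpGs) fell in differentiated cells from 63.1% to 39.6%. ISC levels were 55.9% and 36.2%. The exon thus held a gaining and a losing part.

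In the introns of Nod2, the bin chr8:91175201-91175400 of intron 1 (4 CpGs) fell from 76.1% to 50.5% in ISCs (exact test, adjusted p = 0.033) and from 69.5% to 36.2% in differentiated cells (adjusted p = 1.5e-05). The single CpG in the printed stretch of intron 4 fell from 80% to 34.5% in ISCs (32 of 40 and 10 of 29 calls, exact test, adjusted p = 0.013) and from 75.4% to 31.1% in differentiated cells (52 of 69 and 19 of 61 calls, adjusted p = 8.2e-05), with 5.03% of its calls on the minus strand. In the untranslated part of exon 12, chr8:91210601-91210800 (5 CpGs) rose from 64.2% to 84.9% in ISCs (exact test, adjusted p = 0.026) and from 50% to 73.4% in differentiated cells (adjusted p = 9.9e-06). The remaining calls in introns 1, 4 and 7 were single bins of 1 to 7 CpGs. They ran from a loss in intron 4 (chr8:91190201-91190400, 1 CpG, 80% and 18.4% in ISCs at P0 and P21, 83.3% and 53.1% in differentiated cells, called in ISCs) to a gain in intron 1 (chr8:91176601-91176800, 1 CpG, 18.5% and 72.0% in ISCs, 34.9% and 52.1% in differentiated cells, called in ISCs).

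The Nod2 promoter was at 24.3%, 25.6%, 14.2% and 15.3% in ISCs at P0, ISCs at P21, differentiated cells at P0 and differentiated cells at P21. The pooled calls thus differed between the populations by −10.0 points at P0 and −10.2 points at P21. With each bin weighted equally the levels were 38.5%, 35.2%, 37.9% and 36.5%, and the differences −0.61 and 1.26 points.

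**Figure D4:**
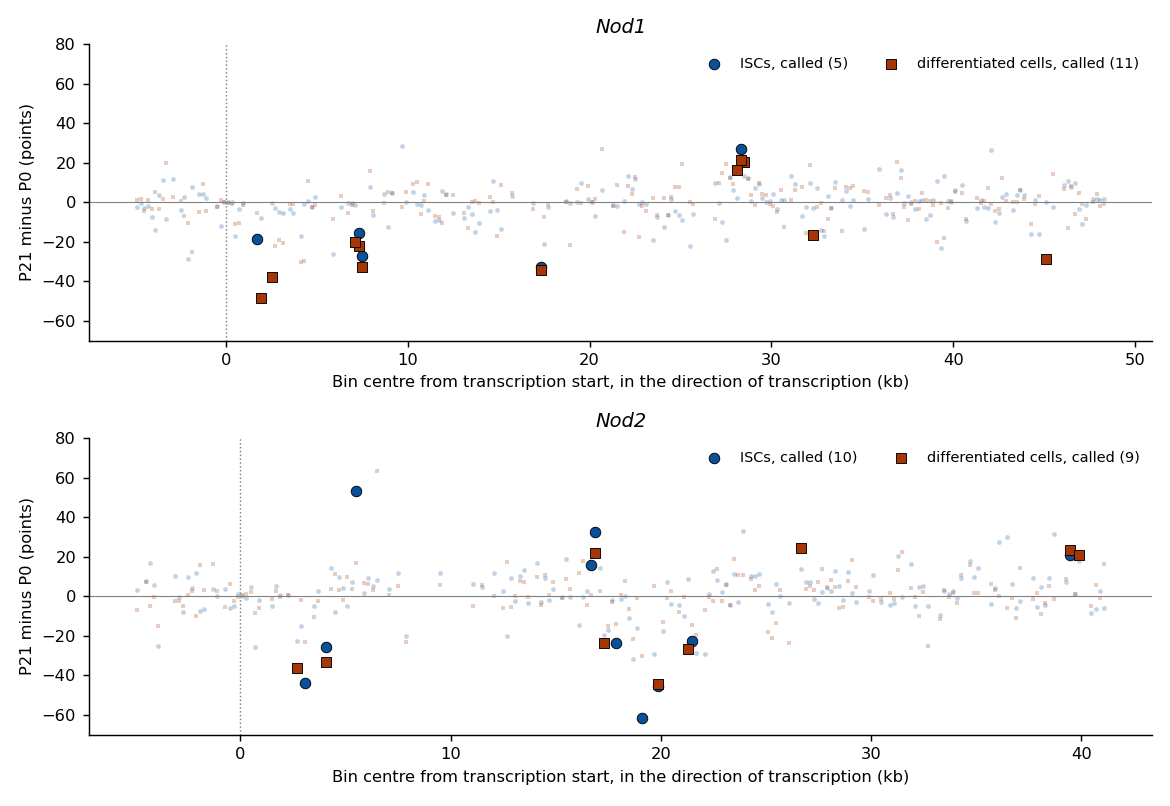
Difference between P21 and P0 in percentage points of each tested bin of Nod1 and Nod2 against the distance of its centre from the transcription start in kb, with large outlined points for called bins. Called losses and called gains stand at separate places along both genes, and between them the 2 populations scatter around 0.

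Myd88, the adaptor of most Toll-like receptors and of the interleukin-1 receptor (chr9:119245052-119250529, minus strand), had an unmethylated promoter (78 CpGs) at 3.19% in ISCs at P0, 2.68% in ISCs at P21, 3.26% in differentiated cells at P0 and 2.84% in differentiated cells at P21. A run of called bins lay upstream, inside the neighbouring gene Acaa1a, a peroxisomal thiolase gene on the other strand. The bin chr9:119251801-119252000 (5 CpGs) fell from 84.5% to 31.0% in ISCs (93 of 110 and 52 of 168 calls, exact test, adjusted p = 7.6e-16) and from 86.3% to 41.6% in differentiated cells (189 of 219 and 69 of 166 calls, adjusted p = 2.3e-17). The next bin fell in ISCs from 29.3% to 0 of 106 calls, which allows up to 2.83%. Levels in differentiated cells were 17.4% and 3.68%, a difference of −13.7 points. The third fell in ISCs from 82.2% to 19.6%. The values in differentiated cells were 63.2% and 38.5%, where it had 19 and 13 calls (exact test, adjusted p = 0.78). All 10 CpGs of the run were lower at P21 in both populations. In differentiated cells 2 losses were called, the first bin of the run and a bin outside it. The run lies upstream of Myd88 and within Acaa1a, and methylation levels do not assign it to either gene.

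**Figure D5:**
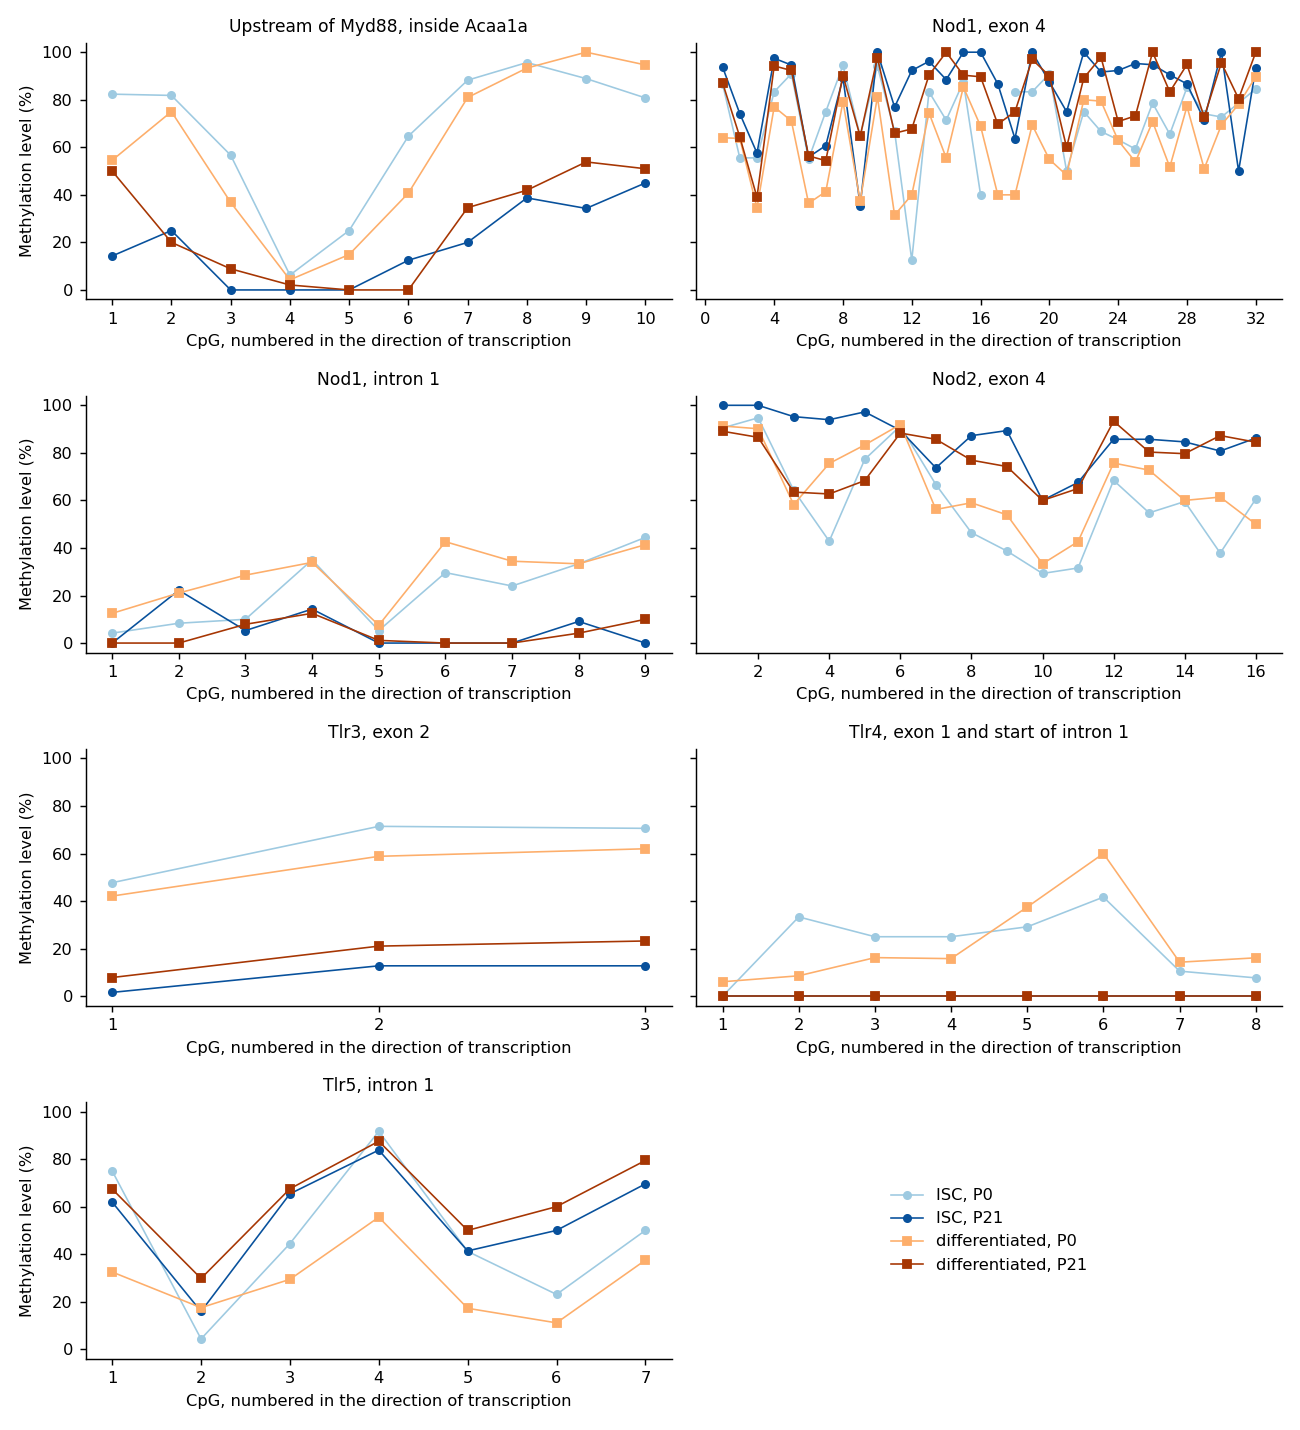
Methylation level (percentage of calls) of each CpG with at least 5 calls in the 7 runs of adjacent bins named in the text, numbered in the direction of transcription, with 1 line per library. In the Myd88 upstream, Nod1 intron 1, Tlr3 and Tlr4 runs the P21 lines lie below the P0 lines at nearly every CpG, with the ISC line at P21 hidden under the differentiated one at 0% in Tlr4, and in exon 4 of Nod1 and Nod2 they lie above at most CpGs.

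Because many of these bins were read mostly from 1 strand, the 14 bins called in both populations were split by strand. In 7 of them over 90% of the calls came from 1 strand, among them both Tlr3 bins, the Tlr5 bin and 3 of the Nod1 bins. In 6 there were at least 5 calls on each strand in every library, and in these 6 of 6 the difference had the same sign on both strands in both populations. Those 6 include the exon 4 bins of Nod1 and Nod2, the second Tlr4 bin and the first Myd88 bin. The part of the strand in the other bins was not tested. All 14 bins were picked by the sum of the same calls over both strands, so agreement of the strands is not separate support. The CpGs counted in the named runs were likewise picked by their own calls. Their shared direction is not separate support either.

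Over whole regions no gene of the 10 was called with age, where the background shares would also give about 0. In promoters, 0 of 10 were called in ISCs (1.85% of all promoters) and 0 of 10 in differentiated cells (1.67%), while 3 and 5 had an adjusted p below 0.05 at smaller sizes (20.5% and 24.2% of all promoters), and the median difference was −0.95 and −0.48 points. In gene bodies, 0 of 9 were called in ISCs (1.07% of all bodies) and 0 of 9 in differentiated cells (1.01%), with 3 and 2 below an adjusted p of 0.05 (33.4% and 41.4% of all bodies) and differences between −1.54 and 5.39 points in ISCs and between −1.90 and 3.08 points in differentiated cells. In last exons, 0 of 10 were called in ISCs (3.39% of all last exons) and 0 of 10 in differentiated cells (3.09%), with 2 and 1 below an adjusted p of 0.05 (11.4% and 14.7% of all last exons). The last exons of Tlr2 and Tlr6, which carry most of the coding sequence of Toll-like receptors, gave those values. The Tlr2 last exon was at 89.7% in ISCs at P0, 86.3% in ISCs at P21, 85.2% in differentiated cells at P0 and 79.9% in differentiated cells at P21, and the Tlr6 last exon was at 79.5%, 71.5%, 77.5% and 75.5%. The pooled differences in ISCs and differentiated cells were −3.43 and −5.30 points for Tlr2 and −7.93 and −1.96 points for Tlr6. With each bin weighted equally they were −0.16 and −1.74 points for Tlr2 and −4.20 and −0.28 points for Tlr6.

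Body levels were high in each library outside Tlr5, from 69.8% to 96.2%, and that of Tlr5 lay between 58.0% and 64.1%. Last exons were at 79.9% or more, with lower levels in Tlr9 (59.4% to 67.9%), Myd88 (53.0% to 62.3%) and Tlr6. The change with age was then compared between populations by a z test of the difference of differences, passed where its adjusted p was below 0.05. Of the 10 genes, 0 promoters passed (12.1% of all promoters), 1 body passed (13.2% of all bodies) and 0 last exons passed (3.61% of all last exons). The body was that of Tlr5, which was at 59.9% and 64.1% in ISCs at P0 and P21 and at 58.6% and 58.0% in differentiated cells, a difference of −4.84 points (SE 1.16) that turned to 0.91 points when bins were weighted equally.

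Between the populations, few bins of the 10 genes were called at either age. At P0, 5 of the 920 bins were called between differentiated cells and ISCs (3 higher and 2 lower in differentiated cells, 0.543% against 0.357% of all bins), and at P21 1 bin was called (0.109% against 0.119%). At P0, 0 promoters (1.14% of all), 0 bodies (0.41% of all) and 0 last exons (0.996% of all) of the 10 genes were called, and at P21 0 promoters (0.839%), 0 bodies (0.274%) and 0 last exons (0.756%) were. Adjusted p alone was below 0.05 for 3 promoters, 1 body and 2 last exons at P0 (37.2%, 28.8% and 7.09% of all) and for 3 promoters, 2 bodies and 1 last exon at P21 (31.0%, 27.9% and 5.15% of all).

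The called bins between populations were looked up after their values were seen. Of the 5 at P0, 2 lay in Nod1. One bin was in intron 1 (chr6:54920601-54920800), where differentiated cells at P0 were at 84.8%, ISCs at P0 at 47.6%, and the P21 libraries at 36.4% and 39.8%. The strands differed in ISCs at P21, at 23.3% on the plus strand (60 calls) and 75% on the minus strand (28 calls). In ISCs at P0 the minus strand had 7 calls. The other Nod1 bin was in exon 4. A bin of the coding last exon of Tlr2 (chr3:83641201-83641400) was at 76.7% in ISCs at P0 and between 95% and 95.5% in the other 3 libraries. The other 2 were in the far part of the Tlr4 gene record and rested on 12 to 56 calls per library. At P21, a bin of the coding last exon of Tlr6 (chr5:65345801-65346000, 7 CpGs) was at 23.3% in ISCs and 45.1% in differentiated cells, against 50.8% and 52.4% at P0.

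Among 45 other autosomal genes of the pathway, chosen for their roles with earlier results of these data known, the promoters called with age were the same in both populations. In ISCs 2 of 45 promoters were called (against 1.85% of all promoters) and in differentiated cells 2 of 45 (against 1.67%), all losses, with medians over the 45 of −0.59 and −0.23 points. These were Casp1, the inflammasome protease, which fell from 66.8% to 3.93% in ISCs and from 62.2% to 3.35% in differentiated cells, and Nlrp6, a NOD-like receptor of the gut epithelium, which fell from 19.1% to 0.738% and from 21.8% to 0.625%. The body of Nlrp6 fell from 33.3% to 9.89% in ISCs and from 25.9% to 8.72% in differentiated cells. The last exon of Pycard, the inflammasome adaptor ASC, fell from 41.2% to 0 of 29 calls and from 27.3% to 0 of 55 calls, with 2 CpGs measured. Each of these 3 genes fell in both populations.

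The promoters of 2 further Toll-like receptors, 4 co-receptors such as Cd14 and Ly96, 3 chaperones, 5 adaptors such as Tirap and Ticam1, 11 kinases and ligases, 6 inhibitors such as Tollip and Sigirr, and 5 transcription factors such as Rela gave 0 calls with age, which at the shares of all promoters is near the background. Of 41 bodies measured, 1 was called in each population (against 1.07% and 1.01% of all bodies), and of 41 last exons 1 was called in ISCs and 3 in differentiated cells (against 3.39% and 3.09% of all last exons). In differentiated cells alone, the last exon of Unc93b1, the chaperone that carries Toll-like receptors to endosomes, rose from 68.7% to 84.3% (78.7% and 81.0% in ISCs), and that of Ripk2, the kinase of NOD signalling, fell from 45.8% to 25.2% (26.0% and 24.1% in ISCs). For both, the change differed between populations by the z test, which 3.61% of all last exons passed, by 13.3 points (SE 3.77) and −18.8 points (SE 4.40), and for Ripk2 the mean of bin levels differed by −6.79 points in differentiated cells and −12.2 points in ISCs.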

How the data were processed

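Whole-genome bisulfite libraries of 4 groups, 1 per group, were used. The authors trimmed reads and mapped them to mm9, with Bismark and Bowtie named in the submitters' processing notes without versions. Treatment of duplicate reads is not given in the sources used here. The deposited files give, for each CpG cytosine of 1 strand, the count of all calls and the count of methylated calls, and the deposited fraction is their ratio, which was recomputed. Between 0.469% and 0.860% of positions were not at a reference CpG and were left out.

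Strands were summed, and 200-bp bins with 1 CpG or more and 10 or more calls in each library entered Fisher's exact tests (two-sided) with Benjamini-Hochberg adjustment over all autosomal bins. The study used bins of the same size with at least 2 CpGs. Calls were also summed over promoter, body and last exon of 20742, 17545 and 17074 genes and tested in the same way. GENCODE M1 supplied the transcript with the longest coding sequence, and Tlr7, Tlr8, Tlr13 and Irak1, on chromosome X, were not tested. Intervals are Wilson and Newcombe intervals. The tests were tested on simulated data. Python 3.11.15, numpy 2.4.6, scipy 1.17.1, pandas 2.3.3 and numba 0.67.0 were used.

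Members and gene lists were chosen with earlier results of these data known. Bins were named when called in the same direction in both populations or in a run of adjacent called bins of 1 direction, and otherwise the largest called bin of a gene was named. Further bins were named after their values were seen. For the promoter with the largest summed change, the 3 nearest promoters by Euclidean distance were named, and of other pathway genes those with a called region. Alternatives covered CpGs and calls per bin, size of difference, thinning, bin phase, promoter width, start site, strand and weighting.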

Additional observations from a re-analysis of the deposited data

Results flagged for a closer look

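The change with age in the gene body of Tlr5 differed between the populations, by −4.84 points (z test on summed calls, SE 1.16). It was the only region of the 10 genes to pass this test. That is 1 of 9 bodies, against 13.2% of all bodies, so the count is near the background. On minus-strand cytosines alone the difference missed the threshold. The body was at 59.9% and 64.1% in ISCs at P0 and P21 and at 58.6% and 58.0% in differentiated cells, over 76 bins with 259 CpGs. With each bin weighted equally, the change was 2.35 points in ISCs and 3.26 points in differentiated cells, and the difference between them was 0.91 points. With 1 library per group, no sample could be compared with others of its group.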

How the results depend on the processing

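No paired analysis was possible because each group has 1 library, and for the same reason no library could be left out. Without the test, 138 (ISCs with age), 128 (differentiated cells with age), 107 (between populations at P0) and 80 (at P21) bins differed by over 15 points, which is 15%, 13.9%, 11.6% and 8.70% of the bins against 16.4%, 14.5%, 13.5% and 12.2% of all bins. With a difference over 30 points the counts were 13, 18, 3 and 0 of the 920 bins (against 1.08%, 1.02%, 0.149% and 0.0521% of all bins). With calls thinned to the lowest library they were 26 in differentiated cells with age, 2 at P0 and 0 at P21 (2.83%, 0.217% and 0% against 0.95%, 0.058% and 0.0248%). At least 2 CpGs, or at least 20 calls, gave 2 at P21 (0.279% and 0.272% against 0.182% for both). Chosen after seeing the data, plus-strand calls alone gave 16, 20 and 3 (with age, and at P21, 2.88%, 3.60% and 0.540% against 1.58%, 2.13% and 0.122%) and minus-strand calls alone 19, 24 and 2 (with age, and at P0, 3.29%, 4.15% and 0.346% against 1.60%, 2.11% and 0.365%), from fewer tested bins (556 and 578).

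For regions, where the counts reported were 0, the share of all such regions called under the same setting stands in brackets. Promoters within 500 bp gave 1 promoter in ISCs (2.44%), 1 in differentiated cells (2.20%) and 1 body between populations at P21 (0.479%). Plus-strand cytosines gave 1 promoter (1.62%) and 1 last exon at P21 (1.09%) and 1 last exon in ISCs (3.58%), and minus-strand cytosines 2 promoters in ISCs (2.72%) and 1 in differentiated cells (2.25%). Bins of at least 20 calls gave 1 body at P21 (0.282%), and a difference over 10 points gave 1 promoter in ISCs (4.32%), 1 at P0 (4.6%) and 1 at P21 (3.02%). In the test of the difference between populations, promoters within 500 bp gave 3 bodies (18.6%) and 1 last exon (3.68%), plus-strand cytosines 1 promoter (8.74%), 2 bodies (10.7%) and 2 last exons (3.23%), minus-strand cytosines 1 promoter (8.82%) and 0 bodies (10.2%), and bins of at least 20 calls 1 promoter (11.9%). The Tlr5 body reversed to 0.913 points with the mean of bin levels and missed the threshold at −4.58 points on the minus strand.

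The Tlr3 promoter difference was −1.40 and −0.56 points on the plus strand and −40.0 and −24.9 points on the minus strand. That of Tlr4 in ISCs was 3.54 points on the plus strand and −23.6 points on the minus strand. Each strand value covers only bins with at least 10 calls on that strand in every library, so the sets of bins differ between strands. With each value of a region counted once per setting, 287 moved by less than their counting interval and 65 by more, the strand values above among them. The cause was not tested. The depth sets a limit, since a bin with 10 calls shows only large differences.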
